A study of Enallax costatus with 10 samples.

Results

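Gene expression of the green alga Enallax costatus was compared between drops of culture that had dried out and drops that had been wet again for 1 h. The genes described are the 9262 of 32478 assembly genes with at least 10 counts in at least 2 of the 4 Dry and Rehydrated libraries. Of these, 9234 also passed the low-count filter of the statistical fit, which tested 16190 genes in all, and 28 did not. An assembly gene is a group of contigs that the assembler treats as 1 gene. Part of a gene, or one of several near-identical copies, can stand as an assembly gene, and where copies share reads their values are uncertain. The tables do not pair the identifiers with gene names, so the genes are described by their levels, groups and time courses.

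All 10 libraries came from strain CCAP 276-31, grown for 6 weeks and dried as 40 µL drops on cover glasses, and each of 5 stages had 2 libraries. The Dry drops were collected about 24 h after drying began, following 11 h in the drying chamber as fully flat spots. The Rehydrated drops were collected 1 h after water was returned. The stages before, Hydrated (0 h), Early desiccation (2.5 h, 25% of the volume lost) and Late desiccation (7.5 h, 60% lost), serve for context. All groups share the strain and the removal of ribosomal RNA with a kit made for Arabidopsis plus 105 custom oligonucleotides. Whether the 2 libraries of a stage stem from different cultures is not said in the labels, so the p-values rest on a spread between libraries that may be technical. RNA was taken from whole drops, in which fewer living cells and less RNA per cell cannot be told apart.

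Green algae of this family differ in whether they survive the loss of nearly all their cell water. The series title calls the alga a desert one, but the sample labels give no habitat, and Enallax costatus is otherwise known as an aquatic species that does not tolerate desiccation. In a dried drop metabolism comes to a near stop, and RNA made before or during drying can persist. Rewetting allows transcription and RNA decay to resume in cells that live and RNA to be lost from cells that do not. No measure of survival was analysed here. The comparison of Rehydrated with Dry asks which transcripts differ across that first hour.

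The Rehydrated libraries stood apart from each other more than the Dry libraries did. Total counts were 2497321 and 3713456 in Dry and 1974791 and 2031426 in Rehydrated (replicates 1 and 2). Across the 9234 genes, the Pearson correlation of log2 CPM (CPM, the count divided by the TMM-scaled library size and put on a common scale) was 0.92 between the Dry libraries and 0.62 between the Rehydrated libraries. Rehydrated replicate 1 reached 0.59 and 0.62 with the Dry libraries, and replicate 2 reached 0.26 and 0.28. These correlations are across genes, which are not independent replicates. In Rehydrated replicate 2, 320 of the 9262 genes had at least 100 counts and 1394 had none. The other 3 libraries had 1342 to 2619 genes at that level and 194 to 339 with no counts.

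Both Rehydrated libraries also share a property with Hydrated replicate 2 and Late desiccation replicate 2. A set of 147 genes, 37 of them among the 9262, had at least 3 counts in each of these 4 libraries and none in the other 6, whereas the next set of 4 libraries held 19 such genes. The labels name no batch. Because Dry lies wholly outside this set and Rehydrated wholly inside it, the library split and the stage can be separated only through the Hydrated and Late desiccation libraries, which have 1 on each side. The 147 genes held 0.0687% and 0.104% of the counts of the Rehydrated libraries. Likeness over the 9234 genes also differed by side. Rehydrated replicate 2 had Pearson correlations of 0.48 and 0.46 with Hydrated and Late desiccation replicate 2. With replicate 1 of these stages it had 0.28 and 0.36. For Rehydrated replicate 1 the values were 0.63 and 0.60, against 0.54 and 0.58. What the split stands for was not tested.

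After 1 h of rewetting, more genes were lower than higher relative to Dry. Of the 9234 genes, 1734 were lower in Rehydrated (18.8%, against 11.0% of all 16190 genes tested) and 581 were higher (6.29%, against 5.66%), by edgeR's quasi-likelihood test at an adjusted p under 0.05. In either direction 2315 were called (25.1%, against 16.7%), and the 6.29% called higher stood near the background of 5.66%. The lower genes had a median log2 fold change of -2.87 and the higher genes one of 2.86. Over all 9234 genes the median was -0.55, against 0.20 over all genes tested. More than 8-fold changes were fitted for 779 of the lower and 269 of the higher genes, and more than 32-fold changes for 140 and 94. The median SE was 0.63 and 0.70 on the log2 scale. The way the genes were chosen enters these counts. Of the 9262, 1121 met the count minimum through both Dry libraries alone, and both Rehydrated libraries lay below both Dry libraries in CPM for 983 of the 1107 tested. Another 651 met it through both Rehydrated libraries alone, and all 651 were above both Dry libraries, as the minimum requires. A count of 10 corresponds to 6.07 and 4.87 CPM in Dry and to 6.33 and 14.9 CPM in Rehydrated, so the minimum was stricter for Rehydrated replicate 2. Of the genes just inside it, whose second highest count was from 10 to under 11, the 483 tested had a median log2 fold change of 0.89. The 524 tested just outside, from 9 to under 10, had 1.12. The 6956 tested genes outside the rule, which are scarce in these libraries, had a median of 1.48.

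**Figure D1:**
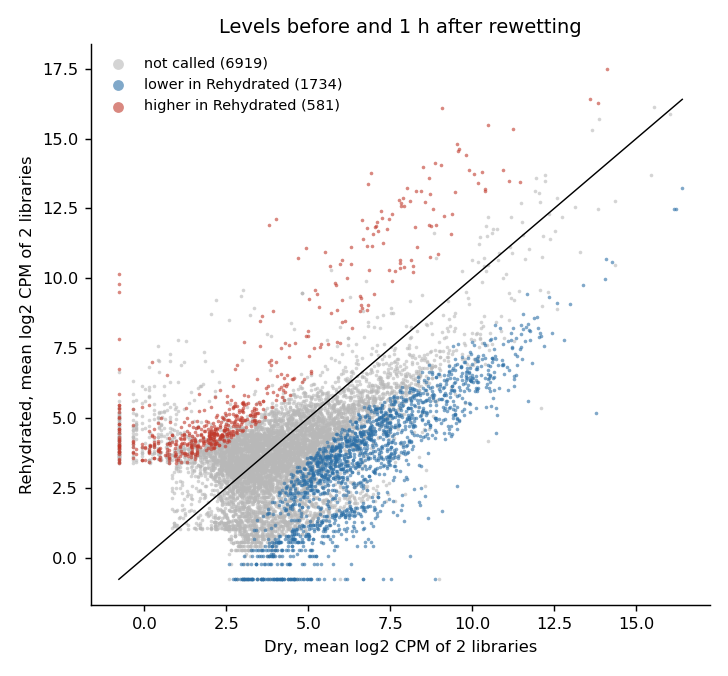
Mean log2 CPM of the 2 Dry libraries (x axis) and of the 2 Rehydrated libraries (y axis) for the 9234 genes tested, 1 point per gene, with 581 higher genes in red, 1734 lower genes in blue, 6919 that were not called in grey and the line of equal levels in black. A band of abundant red genes lies above the line, apart from the main cloud, and the most abundant genes of the cloud in Dry lie below the line.

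These counts depended strongly on which libraries and terms entered the fit. With a term for the library split, 1 higher and 3 lower genes were called (2220 of the 9234 had an unadjusted p under 0.05, against 4141 without the term, where 35.9% of all genes tested did). Of the 2315 called genes 2312 kept their sign, which the choice of genes with large changes favours. A fit of the Dry and Rehydrated libraries alone called 353 higher and 172 lower genes, so the balance of directions turned there. Its log2 fold changes lay 0.60 above those of the 10-library fit, as a median over the genes tested in both. Upper-quartile scaling called 832 higher and 1277 lower genes, which raised the share of higher calls from 25.1% to 39.4%, and moved the median of all genes by 0.36. Without Dry replicate 1 or 2 there were 46 or 31 higher and 612 or 308 lower calls. Without Early desiccation replicate 1 or 2 there were 253 or 256 higher and 1130 or 1140 lower calls, and without Late desiccation replicate 1 there were 311 higher calls. Without Rehydrated replicate 1 there were 3491 lower and 718 higher calls, and without replicate 2 there were 1640 and 451.

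**Figure D2:**
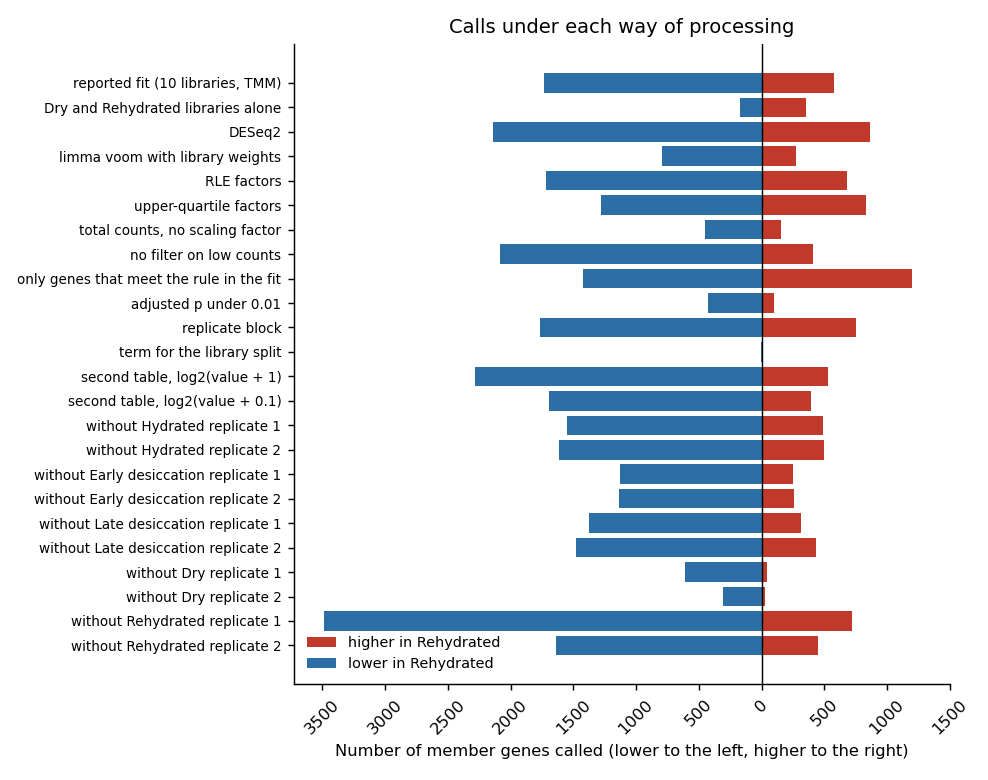
Number of the genes called higher (red, to the right) and lower (blue, to the left) in Rehydrated under each way of processing, 1 bar pair per setting, with the count on the x axis starting at 0. Lower calls outnumber higher calls in every setting shown except the fit of the Dry and Rehydrated libraries alone, with 353 higher and 172 lower, and nearly all calls are lost with a term for the library split.

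Without any test, both Rehydrated libraries lay below both Dry libraries in CPM for 4224 of the 9234 genes (45.7%, against 29.5% of all genes tested) and above both for 1985 (21.5%, against 28.1%). The remaining 3025 overlapped. Taken singly, Rehydrated replicate 1 was more than 4-fold below the Dry mean for 1563 genes and more than 4-fold above it for 887. Replicate 2 was below by that much for 3440 genes and above for 1163. Both were more than 4-fold below for 1218 genes and above for 678, and they lay more than 4-fold off in opposite directions for 32 and 10 genes. These 4-fold counts were taken over the 9234 genes only, with no share over all genes tested beside them. The choice of genes enters them, as their median log2 fold change was -0.55 against 0.20 over all genes tested. With 2 libraries against 2, an exact 2-sided permutation test of a single value cannot go below p = 0.333, so values per library are given without a test.

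The called genes held a large share of the counts of the stage in which they were higher. The 1734 lower genes held 50.1% and 50% of all counts in the Dry libraries and 8.47% and 2.12% in the Rehydrated libraries. The 581 higher genes went the other way, from 5.45% and 5.09% of counts in Dry to 45.7% and 66.1% in Rehydrated. These shares describe genes that were chosen by the same contrast. The 6 earlier libraries were no part of that contrast but entered the fit and its estimate of the spread. In them the higher genes held 10.4% and 19.4% of counts in Hydrated, 20.4% and 8.67% in Early desiccation, and 44.8% and 35.5% in Late desiccation. Late desiccation was thus nearest to Rehydrated in this share, and a single gene, described below as the most abundant of Rehydrated, held 28% and 21.4% there. The lower genes held 31.2% and 23.6% in Hydrated, 28.4% and 38.6% in Early desiccation, and 12.8% and 16.5% in Late desiccation. Shares within a library do not depend on the scaling. Their 95% Wilson intervals were at most 0.0695 percentage points to either side and cover counting error only.

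**Figure D3:**
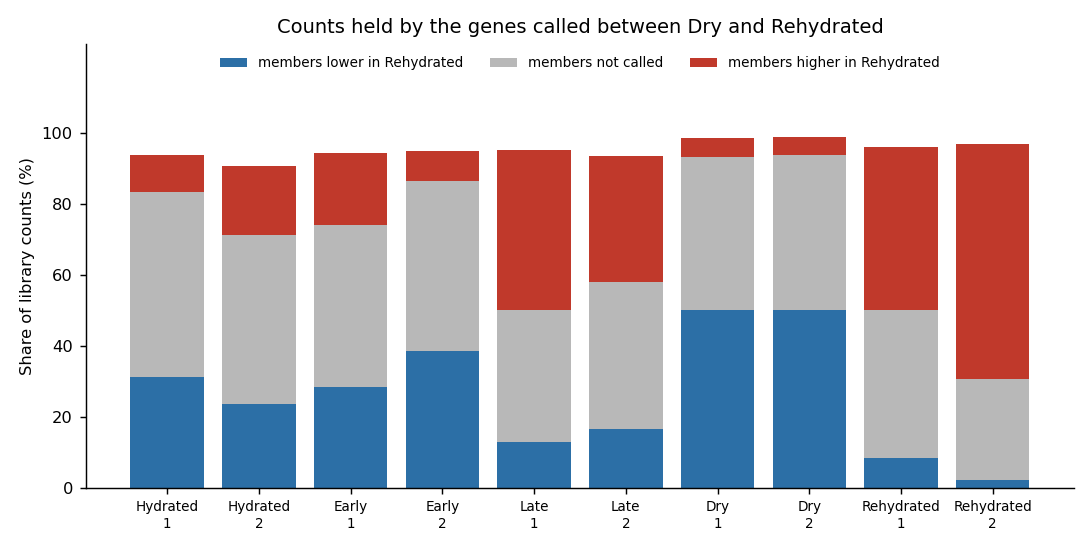
Share of each library's counts (y axis, %) held by the 1734 lower genes (blue), the 6919 genes not called (grey) and the 581 higher genes (red) in the 10 libraries, 1 bar per library with the replicate number under the stage. The red share is about 5% in both Dry libraries and 45.7% and 66.1% in the Rehydrated libraries, and is next highest in Late desiccation.

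By the share of the top 100 genes, counts were most concentrated in Rehydrated replicate 2. By the top 10 genes they were not, with 44.6% there and 50.8% in Late desiccation replicate 1. Ranked within each library, the top 100 genes held 54.1% and 55.8% of counts in Dry and 63.9% and 85.2% in Rehydrated. Late desiccation, at 64.8% and 56.3%, reached the level of Rehydrated replicate 1 in 1 library. Rehydrated replicate 2 had 145 genes with 1000 or more counts, which held 89.0% of the library, and only 175 genes between 100 and 999 counts. Replicate 1 had 183 and 1159 genes in these classes and 70.4% of its counts in the first, not above the 71.3% and 76.3% of Dry. Dry had 347 and 466 genes with 1000 or more counts and 1697 and 2153 between 100 and 999. The interquartile range of log2 CPM over the 9234 genes was 2.61 and 2.72 in Dry, 2.03 and 2.36 in Rehydrated, and between 1.93 and 2.23 in the other 6 libraries.

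**Figure D4:**
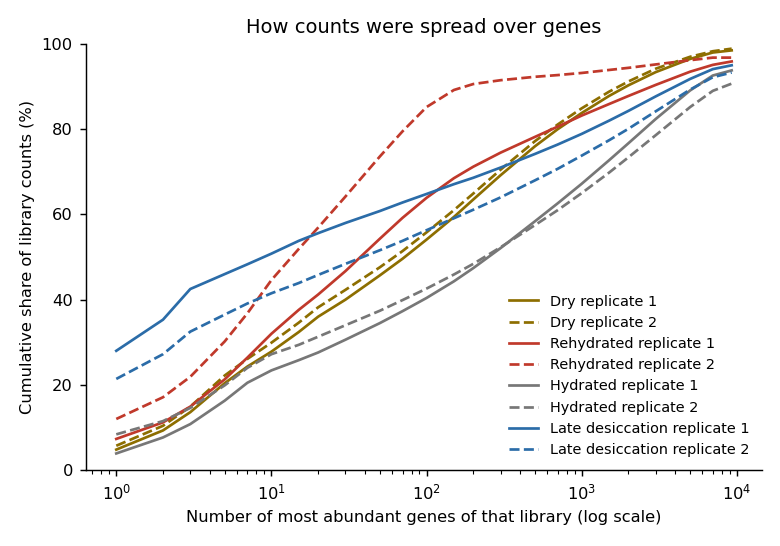
Cumulative share of library counts (y axis, %) held by the most abundant of the 9262 genes in each library, ranked within that library (x axis, number of genes, log scale), for the Dry, Rehydrated, Hydrated and Late desiccation libraries. At 100 genes the Rehydrated replicate 2 curve stands at 85.2%, Rehydrated replicate 1 at 63.9%, the Late desiccation curves at 64.8% and 56.3%, the Dry curves at 54.1% and 55.8%, and the Hydrated curves at 40.4% and 42.6%.

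Abundant genes were grouped by which libraries they reached 1000 counts in, leaving out those that reached it in both libraries of 1 stage and 1 of the other. A shared group of 72 genes had 1000 or more counts in all 4 libraries and held 40.7% and 42.0% of counts in Dry and 49.4% and 62.8% in Rehydrated. Of these 72, 20 were called higher, 5 lower and 47 were not called by edgeR. Over all genes tested, 5.66% were called higher and 11.0% lower. A second group of 57 genes reached 1000 counts in both Rehydrated libraries and in neither Dry library. It took 0.757% and 0.67% of counts in Dry and 10.4% and 15.9% in Rehydrated. In the earlier stages it took 1.43% and 2.52% (Hydrated), 1.4% and 0.888% (Early desiccation), and 3.83% and 3.08% (Late desiccation), all above the Dry values. A further group of 238 genes reached 1000 counts in both Dry libraries and in neither Rehydrated library. It held 22.0% and 20.4% of counts in Dry and 4.43% and 0.66% in Rehydrated, against 4.70% to 13.3% in the 6 earlier libraries. The last 2 groups differ between Dry and Rehydrated by their choice. Low Dry counts were part of the choice of the 57 genes, which favours earlier shares above those of Dry. High Dry counts were part of the choice of the 238 genes, which favours earlier shares below those of Dry.

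Among the 10 genes with the largest mean share of counts in Rehydrated, 6 were called higher, none lower, and 4 were not called by edgeR. Over all genes tested, 5.66% were called higher and 11.0% lower. Ranking by the Rehydrated libraries, which are part of the contrast, favours higher calls in this list. Shares of counts grow with transcript length, so their order is no order of molar level. The most abundant gene held 7.32% and 12.0% of counts in the Rehydrated libraries against 1.24% and 0.915% in the Dry libraries. It was higher by 3.68 on the log2 scale (SE 0.95, adjusted p = 0.0273 by edgeR). The fourth held 2.74% and 4.79% in Rehydrated against 0.0271% and 0.0386% in Dry, a log2 difference of 7.34 (SE 1.02, adjusted p = 0.0055 by edgeR). Its share was lower than in Rehydrated in every other stage as well, with 0.303% in Late desiccation replicate 1 as the highest. It was not scarce there, at 2783 and 1415 CPM in Late desiccation and 411 and 698 CPM in Dry. The fifth and sixth were about as abundant in Dry as in Rehydrated. One held 2.68% and 3.11% in Dry and 3.66% and 3.72% in Rehydrated (log2 difference 0.71, SE 0.64, adjusted p = 0.434 by edgeR), and the other 3.89% and 4.21% against 2.79% and 3.37% (0.02, SE 0.67, adjusted p = 0.996 by edgeR).

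Of the 10 most abundant genes of Dry, 4 were called lower in Rehydrated, 1 was higher and 5 were not called, and 3 of the 10 were also among the 10 of Rehydrated. Ranking by the Dry libraries likewise favours lower calls here. The leading gene of Dry held 4.81% and 5.72% of counts there and 0.701% and 0.352% in Rehydrated (log2 difference -3.18, SE 0.63, adjusted p = 0.0113 by edgeR). The second went from 4.50% and 4.72% to 0.379% and 0.231%, and the next from 4.28% and 4.49% to 0.347% and 0.255%. These 3 genes already held 1.82% to 3.91% of counts in each Hydrated library. They were therefore abundant before drying. The seventh was not: it held 0.00296% and 0.00342% in Hydrated and 1.16% and 1.4% in Dry. That gene was at 0.293% in Rehydrated replicate 1 and at 0.0179% in replicate 2, and was not called (log2 difference -3.35, SE 1.15, adjusted p = 0.0696 by edgeR).

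By the naming rule, the 2 largest rises and the 2 largest falls were taken from 427 higher and 1170 lower eligible genes. TRINITY_DN263498_c1_g3 had 24 and 25 counts in the Dry libraries and 3138 and 5010 in the Rehydrated libraries. On the CPM scale this was 13.4 ± 1.70 in Dry and 4727 ± 3879 in Rehydrated (SD, n = 2), with 1985 and 7470 CPM in the single Rehydrated libraries. Both Rehydrated libraries were far above both Dry libraries, and the gene had no counts in Hydrated or Late desiccation and 0 and 15 counts in Early desiccation. The fitted log2 difference was 8.46 (SE 1.45, adjusted p = 0.0097 by edgeR). The call was lost without Dry replicate 1 or 2 (log2 fold changes 8.35 and 8.16). With the term for the library split the log2 fold change stayed at 8.46, with no SE and no call. That fit cannot decide for this gene, which had no counts in the Hydrated and Late desiccation libraries that separate split and stage.

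TRINITY_DN125347_c2_g4 followed another course before drying ended. It stood at 83.7 and 252 CPM in Hydrated, 13.8 and 42.7 CPM in Early desiccation, and 176 and 201 CPM in Late desiccation. In Dry it was at 10.9 and 22.4 CPM (18 and 46 counts), and in Rehydrated at 2120 and 9334 CPM (3352 and 6260 counts). Rehydrated lay above all 8 other libraries, by 8.42 against Dry on the log2 scale (SE 1.16, adjusted p = 0.0055 by edgeR). Its rank by counts among the 9262 genes moved from 5937 and 4229 in Dry to 78 and 56 in Rehydrated. The 1 other tested gene of its assembly component was also called higher. With the term for the library split the adjusted p was 0.0503 (log2 fold change 7.53).

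TRINITY_DN211705_c61_g4 had the largest fall among the eligible genes. It had 20309 and 33069 counts in Dry, ranks 16 and 15 in those libraries, and 48 and 28 counts in Rehydrated. In CPM it was at 14209 ± 2666 in Dry and 36.1 ± 8.05 in Rehydrated (SD, n = 2), a log2 difference of -8.63 (SE 0.90, adjusted p = 0.0055 by edgeR). The Rehydrated level was also below every earlier library, which ran from 504 CPM in Late desiccation replicate 1 to 3364 CPM in Early desiccation replicate 2. The call held under each of the 22 alternatives, with log2 fold changes from -9.07 to -7.94 and a highest adjusted p of 0.0466. Of the 10 other tested genes in its assembly component, 4 were called higher and 2 lower, against 5.66% and 11.0% of all genes tested.

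TRINITY_DN213706_c3_g4 had 2176 and 4426 counts in Dry and 33 and 15 in Rehydrated. It went from 1737 ± 589 CPM to 21.6 ± 1.06 CPM (SD, n = 2), a log2 difference of -6.33 (SE 0.75, adjusted p = 0.0055 by edgeR). The 6 earlier libraries lay between these levels, from 128 CPM in Late desiccation replicate 1 to 589 CPM in Early desiccation replicate 2. In its assembly component, 10 of the 13 other tested genes were called lower and none higher, against 11.0% and 5.66% of all genes tested. Genes of 1 component may share reads. With the term for the library split the adjusted p was 0.0502 (log2 fold change -6.22).

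**Figure D5:**
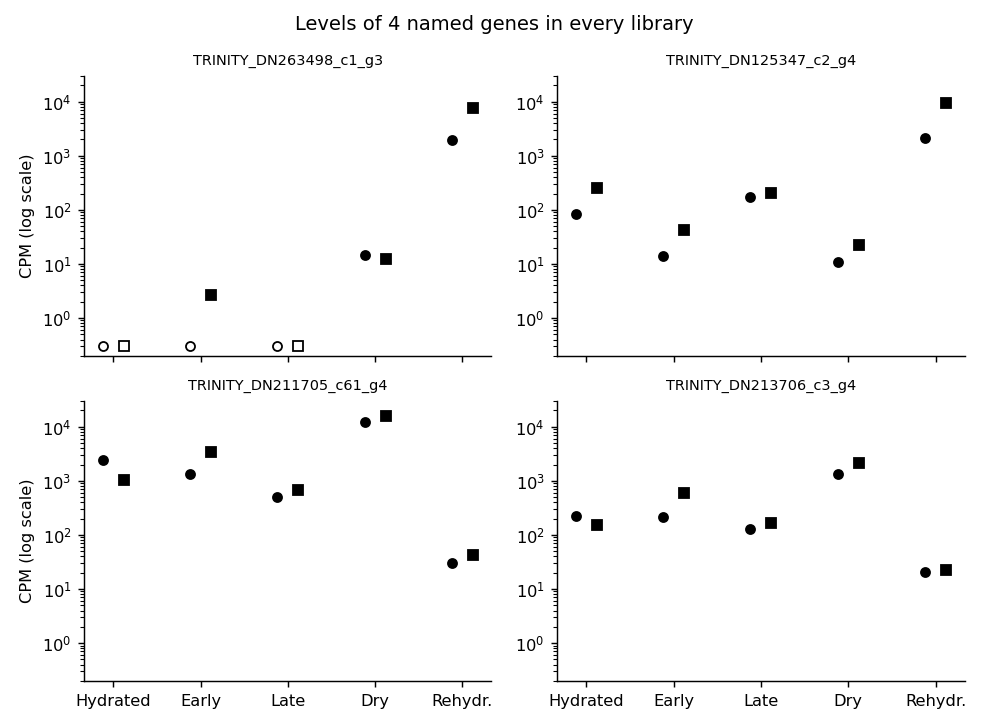
CPM (y axis, log scale) of the 4 named genes in every library, by stage (x axis), with circles for replicate 1 and squares for replicate 2; open symbols at the bottom mark libraries with 0 counts. The 2 upper genes reach 1985 to 9334 CPM in Rehydrated only, and the 2 lower genes are highest in Dry and lowest in Rehydrated.

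Transcripts not detected in 1 of the stages were a small part of the difference. Of the lower genes, 87 had no counts in either Rehydrated library and 319 had none in 1 of them. Taken against 3 counts summed over both Rehydrated libraries (1.33 CPM), the 87 were at least 4.56-fold to at least 346-fold lower, with a median bound of 12.8-fold. All 6 earlier libraries held counts for 74 of the 87, and none did for 1. Of the higher genes, 39 had no counts in either Dry library. They were at least 13.1-fold to at least 1881-fold higher against 3 counts over both Dry libraries (0.81 CPM), with a median bound of 28-fold, and 7 of them had counts in all 6 earlier libraries. With these genes at their bounds, the lower genes had a median log2 fold change of -2.84 and the higher genes one of 2.86. Over all 9262 genes, 111 had no counts in either Rehydrated library and 119 none in either Dry library.

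The balance of rises and falls varied with how abundant a gene was at the other stages. In the lowest quartile of mean CPM over the 6 Hydrated, Early and Late desiccation libraries (up to 8.81 CPM), 7.15% of genes were higher and 10.2% lower in Rehydrated, with a median log2 fold change of 0.01. In the highest quartile (over 35.3 CPM), 6.41% were higher and 29.0% lower, with a median of -1.15. The other quartiles lay between in the median (-0.38 and -0.57) and in the share of lower genes (14.5% and 21.4%), but had the smallest shares of higher genes (5.89% and 5.72%). Over all 16190 genes tested, grouped by their own quartiles, the medians were 1.99, 0.66, -0.12 and -0.91. The lowest of those quartiles had 3.83% higher and 1.16% lower genes and the highest 6.35% and 25.8%, so the shares in the highest quartile were near those over all genes. The 100 genes most abundant over the 6 libraries moved both ways, with a median of -0.02. By edgeR 24 were higher and 30 lower, against 5.66% and 11.0% of all genes tested.

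Relative transcript length was available for 8846 of the genes (95.8%). It was taken from the ratio of the deposited count to the second deposited value, on the assumption that the latter is length-normalised. In the shortest quartile 4.25% were higher and 24.9% lower in Rehydrated. In the longest quartile, whose median length was 1.99 times the median over genes with 20 or more counts, against 0.50 times in the shortest, 9.86% were higher and 13.7% lower. Median log2 differences from the Dry mean ran from -0.74 to -0.01 in Rehydrated replicate 1 and from -2.04 to -0.47 in replicate 2 from the shortest to the longest quartile. They also rose with length in each of the 6 earlier libraries, so the trend against Dry was not particular to Rehydrated. There they were -0.81 to -0.51 in the shortest and 0.03 to 0.18 in the longest quartile. Longer genes were also more abundant in the 6 earlier libraries, with a median of 32.3 CPM against 11.0. The same was done for all genes tested that had a relative length (3465 in each quartile). Their median log2 difference between Rehydrated and Dry was 0.00 in the shortest and 0.06 in the longest quartile. The trend in the median was thus seen among the 8846 genes and not over this wider set. The rise in higher calls was seen in the wider set as well, from 2.80% in the shortest to 9.38% in the longest quartile. Lower calls were 11.5% and 12.0% there. The part of the count minimum in these trends was not tested.

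Assembly genes of 1 component share sequence and may share reads. Among the 9234 genes, 565 components held 2 or more, and 87 held 2 or more called genes. In 56 of these 87 all called genes were lower in Rehydrated, in 18 all were higher, and in 13 both directions occurred. Lower calls outnumbered higher calls, 1734 to 581, among all called genes, which favours components of lower genes.

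In the 6 earlier libraries, which shared the fit but not the contrast, the called genes lay mostly between their Dry and Rehydrated levels. The median of the 581 higher genes was 4.85 and 4.87 CPM in Dry and 23.4 and 31.3 CPM in Rehydrated, and 12.5 to 18.3 CPM in the 6 earlier libraries. The median of the 1734 lower genes was 77.4 and 91.5 CPM in Dry and 16.4 and 8.95 CPM in Rehydrated, and 21.8 to 31.8 CPM in the earlier libraries. For 1271 of the lower genes (73.3%) and 429 of the higher genes (73.8%) the Hydrated mean fell between the Dry and Rehydrated means, against 44.5% of all genes tested. The calls put Dry and Rehydrated far apart, which makes a place between them the likelier one. In Late desiccation the same held for 1239 of the lower (71.5%) and 402 of the higher genes (69.2%), against 42.1% of all. In Early desiccation it held for 1227 (70.8%) and 343 (59.0%), against 38.8%. The Hydrated mean was below both for 328 of the lower genes and above both for 73 of the higher genes.

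Set against Hydrated, the same genes showed a Dry and a Rehydrated difference of opposite sign. These contrasts share libraries with the main one, so their values are given side by side and are no separate evidence. For the higher genes the median log2 fold change from Hydrated was -1.58 in Dry and 1.43 in Rehydrated, and edgeR called 162 of them lower in Dry and 130 higher in Rehydrated, against 5.38% and 2.24% of all genes tested. For the lower genes it was 1.70 in Dry and -1.23 in Rehydrated, with 723 called higher in Dry and 305 lower in Rehydrated, against 7.70% and 3.55% of all genes tested. Another 61 of the lower genes were still called higher in Rehydrated than in Hydrated.

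The Rehydrated libraries differed on many genes, with similar shares among the genes not called and the lower genes and a smaller one among the higher genes. Of the 6919 genes not called, 2217 (32%) were more than 4-fold apart between the Rehydrated libraries, against 384 (5.55%) between the Dry libraries. Of the lower genes, 476 (27.5%) were that far apart in Rehydrated and 4 in Dry. Of the higher genes, 48 (8.26%) were that far apart in Rehydrated and 25 (4.3%) in Dry. Replicate 2 was below replicate 1 for most lower genes, with a median log2 difference of -1.08, and above it for 465 of the 581 higher genes, with a median of 0.97. At the median, the called genes thus lay further from Dry in replicate 2 than in replicate 1, in both directions. Among all 9262 genes, 885 had at least 10 counts in Rehydrated replicate 1 and none in replicate 2, and 30 the reverse, while 31 and 83 genes differed in this way between the Dry libraries.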

How the data were processed

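Tools named by the authors, per the submitters' processing notes, were RSEM 1.2.28, Bowtie2 2.2, Trimmomatic 0.35, CASAVA 1.4 and DESeq2. The sources used here give neither the role of each tool nor how the assembly was made. Deposited expected counts per assembly gene were rounded to whole numbers (11.4% were not whole). The second deposited table holds a score whose formula is not given. It was taken as length-normalised expression divided by 1 TMM factor per library. Its columns summed to between 535618 and 2610432. Column names start with Scos and sample titles with Ecos, so the match rests on the replicate and time parts of the names.

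Analysis used R 4.3.3, edgeR 4.0.16, limma 3.58.1 and DESeq2 1.42.0. filterByExpr (minimum count 10, minimum total 15) kept 16190 genes. All 10 libraries entered 1 quasi-likelihood fit with TMM factors and stage as the factor (5 residual degrees of freedom), with Benjamini-Hochberg adjustment over all genes tested. The SE is the size of the log2 fold change divided by the square root of F. Log2 CPM used a prior count of 2. Named genes were called, had at least 3 counts in all 4 libraries, groups that did not overlap and, in the stage where they were higher, at least 10 CPM on average; from these, the 2 highest and the 2 lowest log2 fold changes were taken. The genes, lists and tests were chosen with earlier results of these data known. Totals ran from 1974791 to 3867192 counts. Libraries of a stage differed beyond sampling noise (chi-square per degree of freedom 10.0 to 37.2), so none were merged.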

Additional observations from a re-analysis of the deposited data

How the results depend on the processing

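The counts of 581 higher and 1734 lower genes moved by more than 1.5 times in several settings; the cause was not tested. The higher count was 353 with the Dry and Rehydrated libraries alone, 97 at an adjusted p under 0.01, 278 by limma voom with library weights, 1197 with only the genes of the rule in the fit, 155 on total counts and 1 with the library split as a term. The lower count was 172, 426, 795, 1421, 452 and 3 in the same settings. Leaving out 1 library at a time gave 31 to 718 higher and 308 to 3491 lower genes; in these fits the filter kept more genes, and a lone library was assumed to vary like the other stages. DESeq2 called 862 and 2141. The replicate block gave 749 higher and 1766 lower genes. Deviations of same-numbered libraries correlated at -0.03 between Dry and Rehydrated and at -0.08 to 0.46 between the other stages (0.46 for Hydrated with Late desiccation), and the labels do not say that a number marks a shared culture or day, so the numbers were not taken to pair the samples. No named gene changed sign under any alternative. Low counts limit Rehydrated replicate 2 most, where 10 counts stand for 14.9 CPM.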
